A study of Anser cygnoides with 11 samples.

Results

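The genes described here encode the machinery that takes filtered protein back up in the kidney. The rule names 9 symbols, LRP2, CUBN, AMN, DAB2, CLCN5, OCRL, LRPAP1, RAB11A and EHD1, and takes the row of the deposited expression table that carries each symbol. Of these, 6 symbols had a row, 1 row each, among 19275 rows in the table, and 3 symbols, CUBN, CLCN5 and EHD1, had none. RNA-seq measured messenger RNA in the kidneys of 11 young swan geese (Anser cygnoides): 5 goslings had visceral gout and 6 were healthy controls. Gout goslings had been selected for typical visceral gout and serum signs, and both groups were sampled in the disease period of the former. The labels give no strain, sex, age, diet or kidney region, so differences between the groups in these could not be examined. Values are FPKM, a fragment count divided by the length of the transcript and by the size of the library, as the authors deposited them.

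Megalin, encoded by LRP2, and cubilin, encoded by CUBN, are large receptors on the brush border of the proximal tubule. They bind filtered proteins and protein-bound vitamins and carry them into the cell through clathrin-coated pits. Amnionless, encoded by AMN, is the membrane partner that anchors cubilin. The product of LRPAP1, the receptor-associated protein, is the chaperone that keeps newly made megalin free of ligand in the endoplasmic reticulum. DAB2 is the adaptor that binds the cytoplasmic tail of megalin and links it to clathrin. CLCN5 encodes the endosomal chloride-proton exchanger CLC-5 and OCRL a phosphoinositide phosphatase of endosomes, and in humans loss of either causes a tubular loss of small proteins into urine. RAB11A and EHD1 act in the return of receptors from recycling endosomes to the cell surface. Most of this knowledge comes from mammals.

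No member passed the test for a difference between gout and healthy kidney. All 6 members with a row reached 1 FPKM in at least 5 of the 11 libraries and were tested, and 0 of 6 had an adjusted p under 0.05 in limma with Benjamini-Hochberg adjustment over all 12252 tested rows, of which 6.99% were called, 6.29% lower and 0.694% higher in gout. Higher calls made up 9.93% of these calls, and 34.8% to 48.0% under upper quartile scaling, median centring and quantile normalization. At an unadjusted limma p under 0.05, 3 of the 6 members (LRP2, AMN and RAB11A) were lower in gout and none was higher; 24.3% of all tested rows were lower at that level, and 27.0% differed in either direction. The ranges of the groups overlapped for all 6 members, as they did for all but 5.03% of tested rows. The fold change lay below 0 for all 6 members, as it did for 76.8% of tested rows, and the median log2 fold change was -0.65 over the members and -0.29 over all tested rows. The median of all tested rows, -0.29, is therefore the background for the fold changes below, and is drawn as a dashed line in the figures of fold changes. It moved with the setting, to -0.21 on the TPM scale and 0.01 after quantile normalization. Whether this general shift came from scaling or from expression was not tested.

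**Figure D1:**
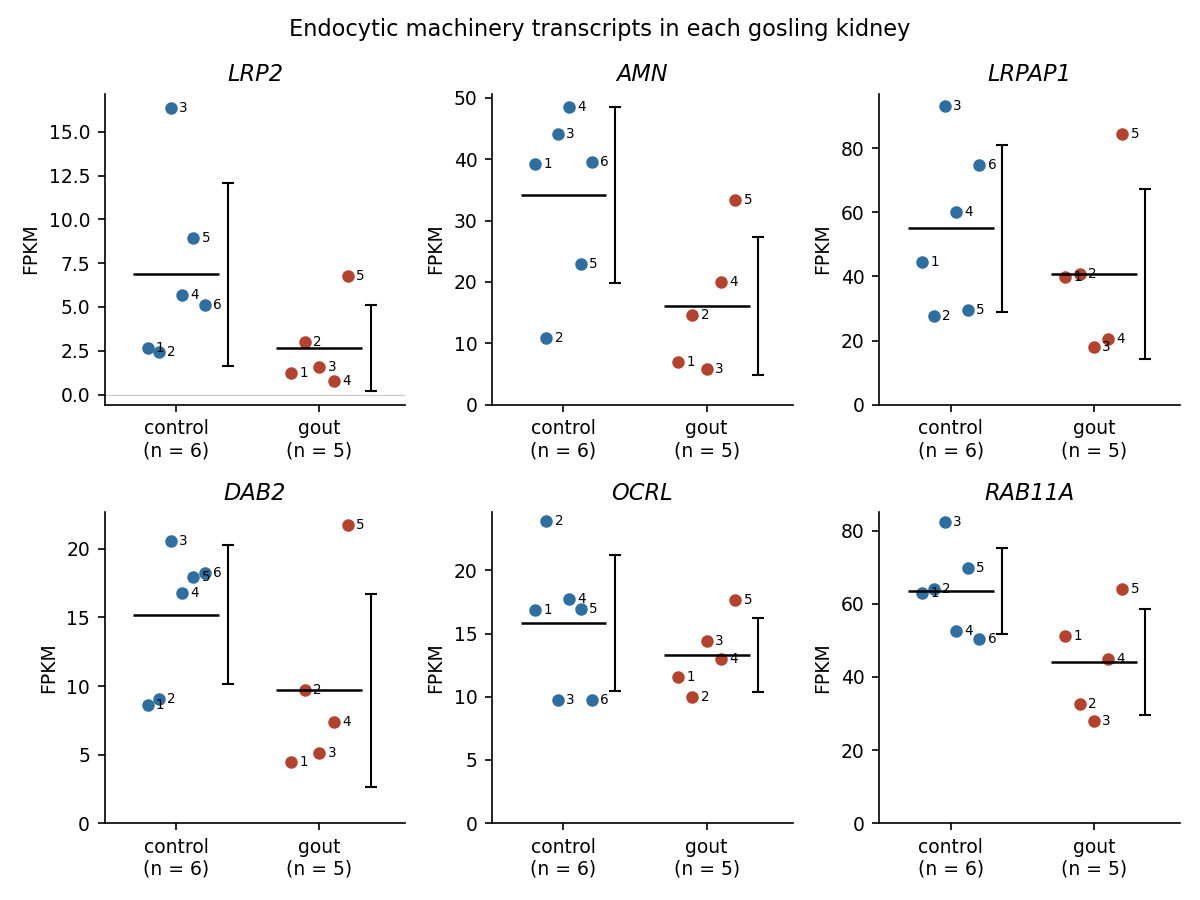
FPKM (vertical axes, each from 0) of the 6 members with a row in each gosling kidney, with the label number of the gosling beside its point, the group mean as a horizontal line and the SD as the bar to its right. Gout replicate 5 is the highest gout kidney in all 6 panels, and the groups overlap in every panel.

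The endocytic receptor megalin was the least abundant member in both groups. LRP2 stood at 1.25, 3.02, 1.57, 0.746 and 6.79 FPKM in gout replicates 1 to 5, and in control kidneys the lowest, median and highest values were 2.41, 5.40 and 16.4 FPKM. Gout replicate 5 lay above the control median, control replicate 3 lay above all other kidneys, and the groups overlapped. The means were 2.68 ± 2.45 FPKM in gout and 6.86 ± 5.23 in control kidneys (SD, n = 5 and 6), and without gout replicate 5 the gout mean was 1.65 FPKM. The log2 fold change was -1.08 with a 95% interval from -2.05 to -0.10 (limma adjusted p = 0.149). Under the other scalings it was -1.17 to -0.76 (limma adjusted p from 0.216 to 0.331). Of the 5 gout kidneys, 3 lay below the lowest control.

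AMN, the partner of cubilin, stood at 6.89, 14.6, 5.76, 20.0 and 33.4 FPKM in gout replicates 1 to 5, against a lowest, median and highest control value of 10.8, 39.3 and 48.5 FPKM. All 5 gout kidneys lay below the control median, 4 of 6 controls lay above the highest gout kidney, and control replicate 2 lay among the gout values. The means were 16.1 ± 11.3 and 34.2 ± 14.4 FPKM (SD, n = 5 and 6), with a log2 fold change of -1.15 and a 95% interval from -2.14 to -0.17 (limma adjusted p = 0.130). On this scale AMN lay slightly below LRP2. With a pseudocount of 0.1 FPKM the order turned (-1.22 for AMN and -1.41 for LRP2). Under the other scalings the log2 fold change of AMN was -1.05 to -0.82 (limma adjusted p from 0.181 to 0.331).

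The chaperone LRPAP1 was far more abundant than its client megalin. LRPAP1 stood at 39.9, 40.6, 17.9, 20.5 and 84.3 FPKM in gout replicates 1 to 5 and at 27.8, 52.3 and 93.1 FPKM as the lowest, median and highest control value. Gout replicate 5 exceeded 5 of the 6 controls, while gout replicates 3 and 4 lay below every control. The means were 40.7 ± 26.6 and 55.0 ± 25.9 FPKM (SD, n = 5 and 6), with a log2 fold change of -0.51 and a 95% interval from -1.40 to 0.38 (limma adjusted p = 0.445). The log2 fold change was -0.37 to -0.16 under the other scalings, -0.28 without gout replicate 3, -0.32 without gout replicate 4, -0.33 without control replicate 3 and -0.82 without gout replicate 5.

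The adaptor DAB2 stood at 4.44, 9.73, 5.13, 7.38 and 21.7 FPKM in gout replicates 1 to 5 and at 8.62, 17.4 and 20.6 FPKM as the lowest, median and highest control value. Gout replicate 5 was the highest of all 11 kidneys, whereas gout replicates 1, 3 and 4 lay below every control. The means were 9.68 ± 7.05 and 15.2 ± 5.08 FPKM (SD, n = 5 and 6), with a log2 fold change of -0.74 and a 95% interval from -1.52 to 0.04 (limma adjusted p = 0.209), and of -0.65 to -0.41 under the other scalings. Without gout replicate 5 the gout mean was 6.67 ± 2.40 FPKM (SD, n = 4).

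The endosomal phosphatase OCRL was the member with the least difference. OCRL stood at 11.5, 9.96, 14.4, 13.0 and 17.6 FPKM in gout replicates 1 to 5 and at 9.71, 16.9 and 23.9 FPKM as the lowest, median and highest control value. The gout values lay within the range of the controls. The means were 13.3 ± 2.94 and 15.8 ± 5.40 FPKM (SD, n = 5 and 6). The log2 fold change was -0.19 with a 95% interval from -0.74 to 0.36 (limma adjusted p = 0.650), and its sign turned under quantile normalization, upper quartile scaling and median centring (0.075, 0.069 and 0.14).

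The recycling GTPase RAB11A had the highest mean of the members in both groups. RAB11A stood at 51.2, 32.5, 28.0, 44.9 and 64.0 FPKM in gout replicates 1 to 5 and at 50.3, 63.4 and 82.4 FPKM as the lowest, median and highest control value. Gout replicates 2, 3 and 4 lay below every control and gout replicates 1 and 5 within the control range. The median tested row of gout replicates 2, 3 and 4 also lay below that of every control. The means were 44.1 ± 14.5 and 63.6 ± 11.8 FPKM (SD, n = 5 and 6), with a log2 fold change of -0.56 and a 95% interval from -1.09 to -0.04 (limma adjusted p = 0.160). Its values also moved with the scaling of the libraries, with log2 fold changes from -0.42 to -0.21 under the other scalings.

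**Figure D2:**
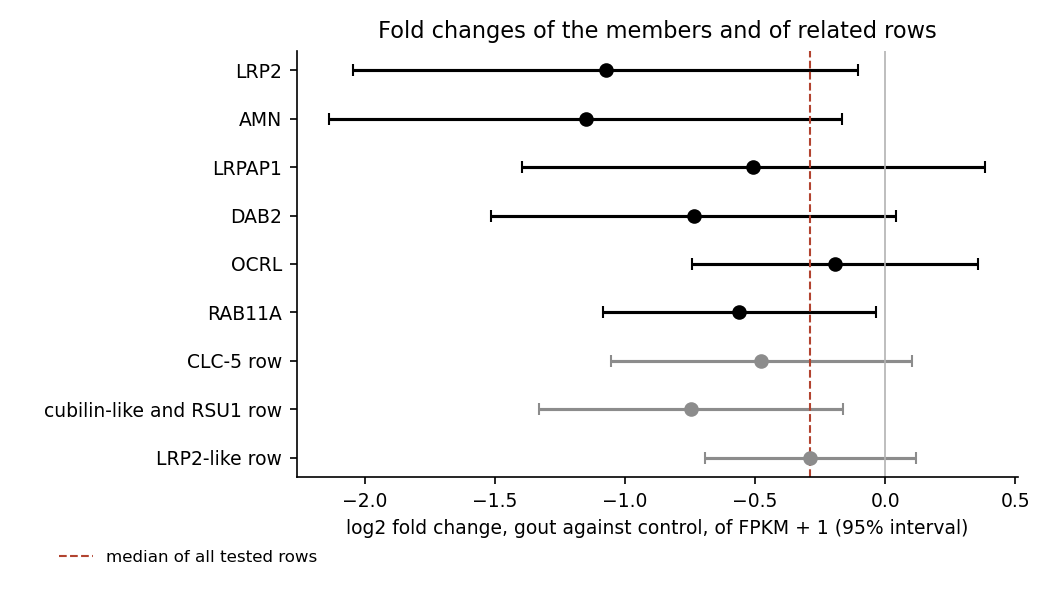
Log2 fold change of FPKM + 1, gout against control, with 95% limma intervals (horizontal axis), for the 6 members (black) and for 3 related rows outside the rule (grey); the dashed line is the median of all tested rows, -0.29. All 9 points lie below 0, and the interval of every member includes -0.29.

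Gout replicate 5 often gave the highest gout value. It was the highest gout kidney for 6 of 6 members. The share of all tested rows highest in it was not counted, so this is not read as particular to the members. Its column total of 399990 FPKM was the highest of all 11 libraries, whose totals began at 229465. Control replicate 1 followed at 390546, and the median tested row stood at 6.26 FPKM in gout replicate 5 and 6.36 in gout replicate 1. In gout replicates 2, 3 and 4 that median was 4.28, 3.71 and 4.54 FPKM, and in controls it was 5.62 FPKM or more. Counts of gout kidneys below every control were taken on the deposited FPKM, with no adjustment for these medians. Without gout replicate 5, limma called 2 of 6 members lower, DAB2 (log2 fold change -1.06, adjusted p = 0.0417) and AMN (-1.47, adjusted p = 0.0486). LRP2 was not called (-1.40, adjusted p = 0.0523), and 11.3% of all tested rows were called lower in that fit. Leaving out any other single gosling gave 0 called members. Control replicate 3 was the highest control for 4 of 6 members, LRP2, LRPAP1, DAB2 and RAB11A, and control replicate 2 was the lowest for 3 of 6. Shares over all tested rows were not counted for these ranks either. The control mean of LRP2 was 4.96 FPKM without control replicate 3.

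The order of the members was kept only in part from gosling to gosling. By control means it ran from LRP2 through DAB2, OCRL, AMN and LRPAP1 to RAB11A. DAB2 exceeded LRP2 in all 11 kidneys, by a median factor of 3.10 in control and 3.26 in gout kidneys. LRPAP1 exceeded AMN in all 11 kidneys as well. DAB2 and OCRL could not be ordered, since OCRL was the higher in 3 of 6 control and 4 of 5 gout kidneys, and neither could LRPAP1 and RAB11A, where RAB11A was the higher in 3 of 6 and 3 of 5. The order of OCRL and AMN also varied, with AMN the higher in 5 of 6 control and 3 of 5 gout kidneys. OCRL exceeded LRP2 in 5 of 6 control and 5 of 5 gout kidneys. The spread was widest for megalin, whose highest and lowest kidney differed 22.0-fold, against 8.43-fold for AMN and 2.46-fold for OCRL.

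Ratios between members within a library do not depend on how that library was scaled, apart from the pseudocount of 0.1 FPKM. LRPAP1 exceeded LRP2 by a log2 ratio of 4.05 ± 0.65 in gout and 3.16 ± 0.88 in control kidneys (SD over 5 and 6 goslings; p = 0.110 in a two-sided exact permutation test). The log2 ratio of LRP2 to RAB11A was -4.33 ± 1.12 in gout and -3.49 ± 0.92 in control (exact two-sided permutation p = 0.201), and that of DAB2 to LRP2 was 1.97 ± 0.66 and 1.37 ± 0.60 (exact two-sided permutation p = 0.212). After adjustment over these 3 ratios each exact permutation p was 0.212. In all 5 gout kidneys the ratios of LRPAP1 and of DAB2 to LRP2 lay above the control median, but neither difference passed the test.

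Cubilin itself was listed under other names. The row LOC106030353 carries a gene number that the RefSeq table of the Taihu goose assembly gives to CUBN, and its deposited description reads as a cubilin-like protein. It stood at 0.566, 0.589, 0.407, 1.005 and 0.847 FPKM in gout replicates 1 to 5 and at 0.612, 0.959 and 2.28 FPKM as the lowest, median and highest control value. This row reached 1 FPKM in 3 of 11 libraries and was below the filter; the difference in mean log2(FPKM + 1) was -0.32 (exact two-sided permutation p = 0.0866). The log2 ratio of this row to RAB11A was -5.81 ± 0.37 in gout and -5.78 ± 0.44 in control kidneys (SD, n = 5 and 6), a difference of -0.03 (exact two-sided permutation p = 0.903). The ratio of LRP2 to it differed by -0.81 and that of AMN to it by -0.61 on the log2 scale (exact two-sided permutation p = 0.188 for each, 0.255 after adjustment over all 6 ratios).

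A second row joins a partial cubilin-like gene with RSU1, which follows CUBN directly in the RefSeq gene order, so its value cannot be assigned to cubilin. Its mean was 18.8 ± 7.10 FPKM over the 5 gout kidneys and 31.4 ± 8.46 FPKM over the 6 controls (SD; log2 fold change -0.75, limma adjusted p = 0.103), and 5 of 6 controls lay above the highest gout kidney. Since more than 1 row carries a cubilin-like description, the level of LOC106030353 and its ratios above hold for that row and not for cubilin as a whole.

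The row LOC106037710, described in the table as the exchanger CLC-5, stood at 3.67, 4.41, 2.70, 2.57 and 8.72 FPKM in gout replicates 1 to 5 and at 4.74, 6.09 and 7.70 FPKM as the lowest, median and highest control value. Of the gout kidneys, 4 lay below every control and gout replicate 5 above every control. The log2 fold change was -0.48 (limma adjusted p = 0.268), and -0.41 to -0.16 under the other scalings. An LRP2-like row, LOC106046103, stood at 0.856 ± 0.331 and 1.28 ± 0.496 FPKM (SD, n = 5 and 6; limma adjusted p = 0.338), and its sign turned after quantile normalization (log2 fold change 0.028). These 4 rows were found through gene numbers and descriptions after the table was seen, and no row was found in this way for EHD1.

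The level of megalin followed that of other proximal tubule transcripts from gosling to gosling. A list of 28 proximal tubule markers had 19 in the table, and their summed level ranged from 491.8 to 1272 FPKM in gout and from 596.7 to 2967 in control kidneys; 0 of the 19 were at 0 in all libraries. Gout replicate 5 had the highest sum among gout kidneys, control replicate 3 the highest and control replicate 2 the lowest among controls. With the group means taken out, log2 LRP2 and the log2 sum correlated with Pearson r = 0.941 (permutation p = 0.00011, adjusted 0.00108) and Spearman rho = 0.945 (permutation p = 0.00028, adjusted 0.00168) over 11 goslings. Without the 2 goslings farthest from the median of the sum, r was 0.932. It was 0.933 within gout and 0.960 within control kidneys, and 0.888 when both measures were taken relative to the median tested row of each library.

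DAB2 moved with the list in the same way, with Pearson r = 0.842 (permutation p = 0.00018, adjusted 0.00108) and Spearman rho = 0.945 (permutation p = 9.0e-05, adjusted 0.00108) over 11 goslings, 0.959 without the 2 farthest goslings and 0.828 relative to the library median. LRPAP1 gave r = 0.705 and rho = 0.709 (permutation p = 0.0165 and 0.0204, adjusted 0.0659 and 0.0637), and AMN r = 0.666 and rho = 0.582 (permutation p = 0.0324 and 0.0690, adjusted 0.0971 and 0.138). RAB11A gave r = 0.448 and rho = 0.364 (permutation p = 0.151 and 0.259), and OCRL r = -0.437 and rho = -0.300 (permutation p = 0.246 and 0.428). For OCRL the groups went opposite ways, with r = 0.631 within gout and -0.798 within control kidneys, and r was 0.263 without the 2 farthest goslings; the difference between the groups was not tested. The p-values were adjusted over 12 relations, those of the 6 members with this list and with the macrophage list. In bulk tissue fewer cells of a type and less RNA per cell cannot be told apart.

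**Figure D3:**
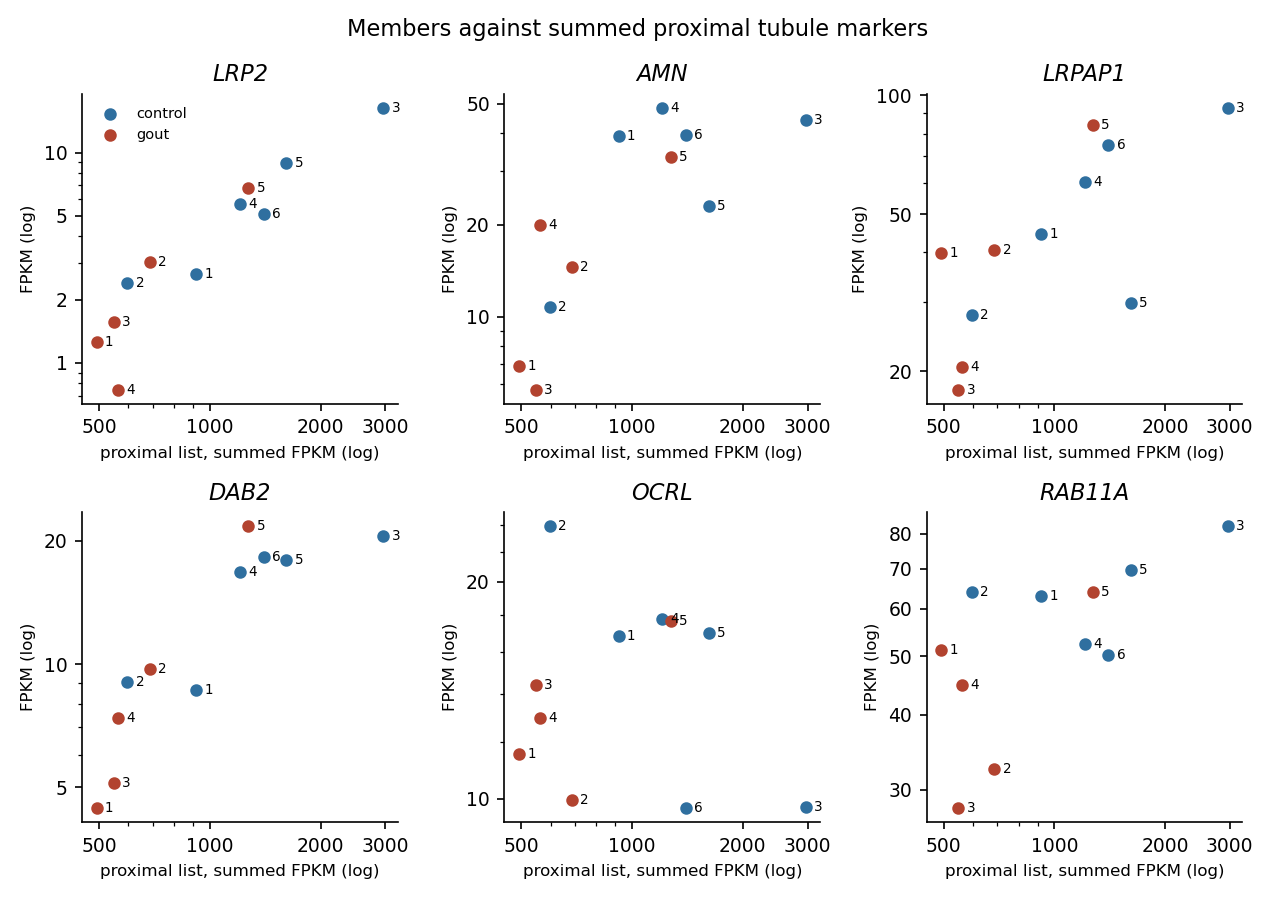
FPKM of each member (vertical log axes) against the summed FPKM of 19 proximal tubule markers (horizontal log axes) in the 11 kidneys, with label numbers beside the points. LRP2 and DAB2 line up with the sum in both groups (r = 0.941 and 0.842 with group means out), and OCRL does not (r = 0.631 within gout and -0.798 within control kidneys).

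Among the members themselves, megalin and its adaptor DAB2 moved together. Over 15 pairs of members, with group means taken out, LRP2 and DAB2 gave Pearson r = 0.847 (permutation p = 0.0016, adjusted 0.0235) and Spearman rho = 0.855 (permutation p = 0.0021, adjusted 0.0313), and r was 0.752 without the 2 goslings farthest in LRP2. This was the 1 pair past the threshold after adjustment. LRP2 and LRPAP1 gave r = 0.686 and rho = 0.691 (permutation p = 0.0303 and 0.0266, adjusted 0.101 and 0.114), and r became 0.278 without those goslings. Slightly higher r came from AMN with DAB2 (0.742), DAB2 with LRPAP1 (0.694) and AMN with LRPAP1 (0.694). Each had an adjusted permutation p of 0.101, and rho was 0.600, 0.691 and 0.709. Without the 2 goslings farthest in the first-named member, these r were 0.667, 0.679 and 0.488. OCRL had negative r with LRP2, AMN, DAB2 and LRPAP1, from -0.41 to -0.15, none past the threshold. All 4 were negative within control kidneys, from -0.861 to -0.637, and positive within gout kidneys, from 0.283 to 0.526. Without the 2 farthest goslings, r with OCRL was -0.378 for LRP2, 0.255 for AMN, -0.689 for DAB2 and -0.077 for LRPAP1.

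The tested rows with a symbol whose pattern was most like LRP2 over the 11 goslings, by Pearson r with group means taken out and as a description, included SCOC (0.979), HAO1 (0.972), PTPN20 (0.959) and KLHL14 (0.958). HAO1, the peroxisomal enzyme that oxidizes glycolate, was lower in gout, with 5.60 ± 3.61 FPKM against 20.2 ± 11.1 FPKM in controls (SD, n = 5 and 6; limma adjusted p = 0.0169), and SCOC, PTPN20 and KLHL14 were not called. For the cubilin-like row the closest were INTS10 (0.987), ACAA2 (0.926), ACTR6 (0.922), A1CF (0.910) and HECW2 (0.896). Of these ACTR6 passed in limma, lower in gout (log2 fold change -0.97, adjusted p = 0.0476), a call that was lost under the 4 other scalings tried (adjusted p from 0.0763 to 0.158).

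Of the genes around the members, few were called, beside 6.29% of all tested rows called lower and 0.694% called higher. The list medians given from here on stand beside a median log2 fold change of -0.29 over all tested rows. In the clathrin coat and adaptor list 0 of 22 tested genes passed, with a median log2 fold change of -0.21; the clathrin heavy chain CLTC stood at 22.0 ± 10.8 in gout and 21.6 ± 2.32 FPKM in control kidneys (named after its values were seen). The smallest p in that list was that of AAK1, a kinase of the adaptor complex, at 3.77 ± 1.58 and 5.80 ± 0.782 FPKM (limma adjusted p = 0.127). In the early endosome and sorting list 0 of 30 passed, with a median of -0.32, and the retromer subunit VPS26A had the smallest p, at 13.3 ± 3.68 in gout and 22.0 ± 3.58 FPKM in control (limma adjusted p = 0.0644). At an unadjusted limma p under 0.05, 1 of 22 and 9 of 30 of these genes were lower and 0 higher.

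In the recycling endosome list 1 of 26 tested genes was lower and 0 higher, with a median log2 fold change of -0.35. EHD4, a relative of EHD1, fell from 1.48 ± 0.372 to 0.638 ± 0.341 FPKM (SD, n = 6 and 5; log2 fold change -0.61, limma adjusted p = 0.0476), a call that was lost in 9 of 11 fits without a single gosling (adjusted p up to 0.113) and after quantile normalization (0.363). EHD4 reached at most 1.13 FPKM in gout and at least 1.09 FPKM in control kidneys, so the controls alone were enough to meet the filter. The EHD4 call was also lost with no filter, with smaller pseudocounts, with the label number as a replicate block and under the other scalings. In the endosomal acidification list, the proton pump subunits and chloride exchangers, 1 of 22 was lower and 0 higher, with a median of -0.57. At an unadjusted limma p under 0.05, 10 of these 22 were lower and 1 higher. In the recycling endosome list 7 of 26 were lower and 0 higher at that level, beside 24.3% of all tested rows lower. OSTM1, the partner subunit of the lysosomal exchanger CLC-7, fell from 4.37 ± 1.06 to 1.87 ± 0.813 FPKM (log2 fold change -0.92, limma adjusted p = 0.0280), with no overlap of the groups. That call was lost in 6 of 11 fits without a single gosling (adjusted p up to 0.0681) and after quantile normalization (0.0547).

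Of the LDL receptor relatives 0 of 9 tested passed, with a median log2 fold change of -0.45. SORL1, a sorting receptor of that family, had the smallest p, at 3.88 ± 1.68 in gout and 7.26 ± 1.41 FPKM in control kidneys (limma adjusted p = 0.0603), and 4 of the 9 were lower at an unadjusted limma p under 0.05. Of the ligands and vitamin handling genes 2 of 8 tested were lower and 0 higher. SEPP1, selenoprotein P, which in mammals is a ligand of megalin in the kidney, fell from 481 ± 260 to 97.9 ± 57.7 FPKM (SD, n = 6 and 5; limma adjusted p = 0.0138), and STRA6, the cell surface receptor for retinol-binding protein, from 2.67 ± 1.07 to 0.733 ± 0.311 FPKM (limma adjusted p = 0.0160). For both the groups did not overlap and every fit without a single gosling kept the call. After quantile normalization neither was called (limma adjusted p = 0.0557 and 0.0612). STRA6 reached at most 1.06 FPKM in gout and at least 1.42 FPKM in control kidneys, so it met the filter through the controls. With no filter STRA6 stayed called (limma adjusted p = 0.0299).

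Of the proximal tubule markers 6 of 17 tested were lower and 0 higher, with a median log2 fold change of -0.68. SLC22A7, an organic anion transporter, had -2.40, GATM, an enzyme of creatine synthesis, -3.71, SLC6A19, a neutral amino acid transporter, -2.85 and SLC22A2, an organic cation transporter, -2.24 (limma adjusted p = 0.00510, 0.00796, 0.00856 and 0.0323). GATM reached at most 0.828 FPKM in gout and at least 1.996 FPKM in control kidneys, so it met the filter through the controls. It stayed called with no filter. The size of its fold change depended on the pseudocount and lay further below 0 with smaller ones. After quantile normalization 3 of the markers were called, SLC22A7, GATM and SLC6A19. The SLC22A2 call was lost there (limma adjusted p = 0.0854) and in 6 of 11 fits without a single gosling (up to 0.0811). HNF4A, a transcription factor of the proximal tubule chosen here after its values were seen, stood at 25.1 ± 9.68 in gout and 26.0 ± 7.64 FPKM in control kidneys (limma adjusted p = 0.848).

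**Figure D4:**
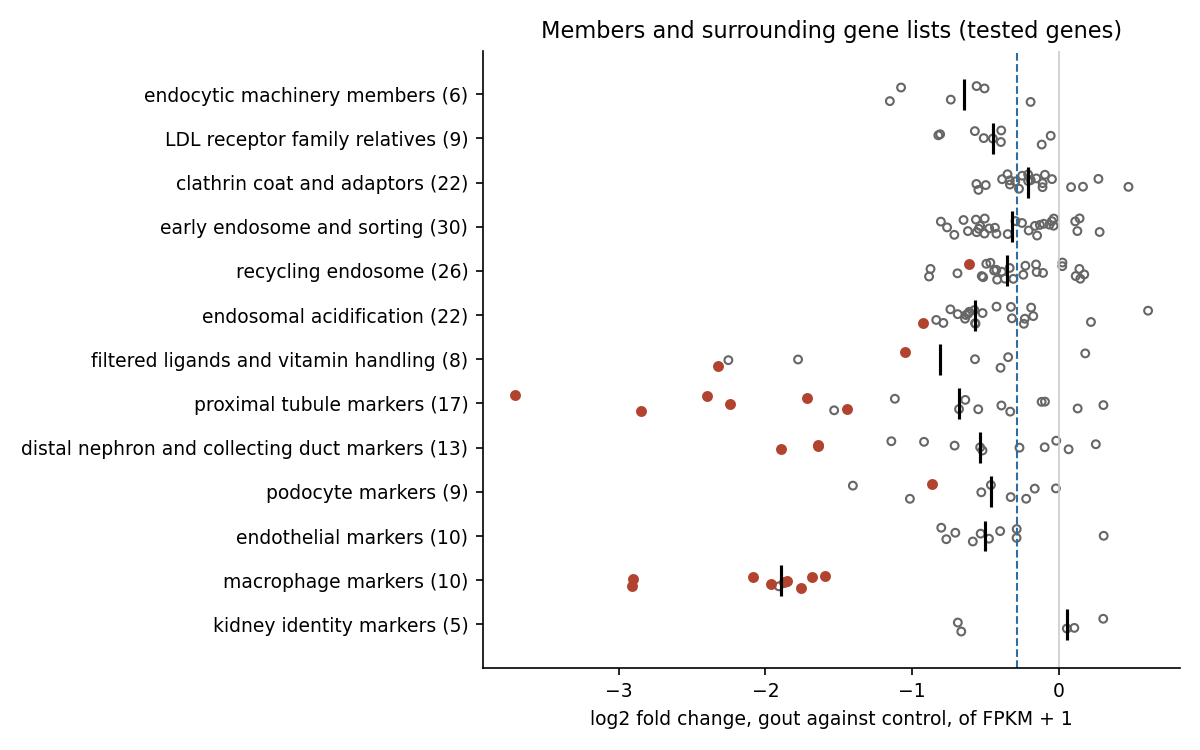
Log2 fold change of FPKM + 1, gout against control (horizontal axis), of each tested gene of the members and of the 12 surrounding lists, with the number tested in parentheses; filled points passed limma at an adjusted p of 0.05, black bars are list medians and the dashed line is the median of all tested rows, -0.29. The members have 0 filled points, as have 5 of the surrounding lists, and the filled points of the other lists lie below 0.

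Markers of other cell types were also examined. Of the kidney identity markers 6 of 11 were in the table, and 0 of 5 tested were called. EPCAM, an adhesion molecule of epithelial cells, had the smallest p (25.4 ± 13.3 in gout and 38.0 ± 9.06 FPKM in control, limma adjusted p = 0.177). PAX2, a transcription factor of kidney development named here after its values were seen, stood at 8.69 ± 1.09 and 8.31 ± 0.730 FPKM (SD, n = 5 and 6; limma adjusted p = 0.858). Of the macrophage markers 9 of 10 tested were lower (3 of 10 after quantile normalization), and their summed level ranged from 151.4 to 1518 FPKM in gout and from 1037 to 5068 in control kidneys. Most of that sum was CD74, the invariant chain of antigen presentation, at 421.2 ± 489.5 FPKM in gout and 2273 ± 1230.1 in control. Whether CD74 and the other markers of this list were particular to macrophages in these kidneys was not tested. CTSS, LAPTM5, MPEG1 and LCP1 had the smallest p (limma adjusted p from 0.00568 to 0.0157). Macrophages can express DAB2, whose r with the macrophage sum was -0.624 and rho -0.673 over 11 goslings (permutation p = 0.0825 and 0.0379, adjusted 0.193 and 0.0911), and whose r with the mean log2 level of the 10 markers was -0.721. Without the 2 farthest goslings its r with the sum was -0.554. LRP2 gave r = -0.553 and rho = -0.700 with the sum (permutation p = 0.0967 and 0.0212, adjusted 0.193 and 0.0637), and the other 4 members r from -0.409 to 0.300, with no adjusted p under 0.05. With both measures taken relative to the library median, r was -0.903 for DAB2 and -0.805 for LRP2. On that measure the other 4 members had r from -0.597 to -0.129, and none of these values was tested. Distal nephron markers had 3 of 13 lower, CALB1, CLDN19 and SLC12A1 (limma adjusted p = 0.00358, 0.00441 and 0.0349), podocyte markers 1 of 9, and endothelial markers 0 of 10, with TEK at limma adjusted p = 0.0506. The call of SLC12A1 was lost after quantile normalization (limma adjusted p = 0.108) and in 5 of 11 fits without a single gosling. The part of cell composition in the values of the members was not tested.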

How the data were processed

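Per the labels' protocols, Trizol-extracted kidney RNA was enriched for poly(A) transcripts and sequenced from both ends by Illumina chemistry. HISAT and StringTie were used, per the submitters' processing notes; their versions and the genome build are not given in the sources used here. Tank oxygen and adipose tissue, which the labels also mention, do not match goslings' kidneys and were left aside. The FPKM values were deposited by the authors as 1 column per gosling, matched by title; with no counts, depth is unknown. In 55 pairs of libraries at most 0.789% of low rows shared a ratio within 0.1%, so no whole reads were recovered. FPKM is scaled within a library, so more RNA of abundant genes lowers all others.

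Values were analysed as log2(FPKM + 1) with limma 3.58.1 in R 4.3.3 (empirical Bayes with trend, two-sided, Benjamini-Hochberg over the 12252 rows that reached 1 FPKM in 5 or more libraries, threshold 0.05). Exact permutation tests used the 462 splits of the goslings, and correlations 100000 permutations within groups; Python 3.11.15 was used. Members and the 12 lists were chosen with earlier results of these data known. Named genes were all members, up to 4 called genes of each list by smallest p or the gene of smallest p where none was called, and the 5 rows most correlated with LRP2 and with the cubilin-like row; exceptions are stated, and some genes under this rule are not reported here. Where several rows shared a symbol, the one with the highest mean was taken. On data simulated from the 12252 rows of gout against control, 34.4% of the 2-fold and 89.2% of the 4-fold changes were called by limma, and 5.21% of calls were false. The simulation used independent normal noise and changed 200 rows per run, up or down at random. Changes were placed only in rows above a mean level that LRP2 did not reach. It held no general shift and no outlying gosling, so these rates need not hold for the members. P-values set a group difference or a correlation against the variation between these goslings.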

Additional observations from a re-analysis of the deposited data

How the results depend on the processing

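The number of members called was 0 in all alternatives run except without gout replicate 5, where it was 2; over single goslings left out it ranged from 0 to 2. With the label number as a replicate block 0 members and 671 rows were called; control replicate 6 has no partner of its number and adds nothing to the group difference there. Same-numbered goslings did not deviate together (r above 0.1 in 1 of 5 pairs), and 1 of 5 gout goslings correlated best with its own number. The number of rows called was 856, and 450 with the filter at 5 FPKM, 471 after quantile normalization, 512 with upper quartile scaling, 520 with median centring and from 316 to 1466 with single goslings left out. The share of higher calls was 9.93%, and 48.0%, 34.8%, 43.3% and 19.8% with quantile normalization, upper quartile scaling, median centring and the TPM scale; quantile normalization moved the median log2 fold change of all rows to 0.01. Of 138 values of members under alternatives, 133 kept sign and side of the threshold, 2 passed it (DAB2 and AMN without gout replicate 5) and 3 turned sign, all of OCRL (0.075, 0.069 and 0.14 under quantile normalization, upper quartile scaling and median centring). Sign also turned for the LRP2-like row (0.028), KLHL14 (0.033), INTS10 (0.014) and HECW2 (0.038) under quantile normalization and for KLHL14 under median centring (0.00258); the cause was not tested. The ratio of the cubilin-like row to RAB11A went from -0.03 to 0.24 with a pseudocount of 1 and ranged from -0.17 to 0.10 with single goslings left out. The other 5 ratios kept their sign and missed the threshold in every alternative run. All 6 members passed the filter, so no separate test of members under it was needed. Without read counts, the precision that depth gives to low rows such as LRP2 could not be stated.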
